A study of Mus musculus with 9 samples.

Results

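The genes described are 39 p53 target and DNA damage response genes, taken from a fixed list of names. They are p53 itself, its inhibitors, and genes listed as p53 targets or as part of the DNA damage response. Whether p53 switches on each of them in these tumors was not tested. All 39 were found among the 35275 genes of the count table and all 39 passed the filter on low counts. They were read in mammary tumors of Brca1Co/Co;MMTV-Cre;p53+/- mice, 3 tumors from 3 mice in each of 3 groups. Both alleles of Brca1 were conditional, Cre was driven by the MMTV promoter, which is active in mammary epithelium, and 1 of the p53 alleles was missing from every cell; all 9 mice, controls included, carried these alleles. Treatment began at a tumor diameter of about 4 mm and consisted of 5 i.v. doses, given 3 times a week, of saline, of the free drug Talazoparib (called i.v. TLZ) or of the same drug in nano-liposomes (NanoTLZ), both at 0.33 mg/kg. Empty liposomes were not among these 9 tumors, so drug and carrier cannot be told apart in the NanoTLZ group. The age of the mice was not given in the labels.

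p53 is a transcription factor that is held at a low level by Mdm2, which marks it for degradation, and by Mdm4, which masks its activation domain. After DNA damage the kinases Atm and Atr, with Chek2 and Chek1, phosphorylate p53 and loosen that hold. p53 then binds a pair of adjoining short sites near its targets and raises inhibitors of the cell cycle, death genes, repair genes and its own inhibitors. PARP inhibitors such as Talazoparib leave unrepaired and trapped lesions that cells without Brca1 repair poorly, and p53 targets are a common readout of such damage.

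The promoters of Cdkn1a, Ccng1 and Rps27l held the closest matches to the p53 response element among the members, and the elements are printed for that reason. Of the 39 genes, 30 matched a RefSeq promoter window (GRCm38.p6, 250 bases before to 50 after a transcript start). The p53 response element was searched by its published consensus, with the core C and G of both short sites required; the consensus is its own reverse complement, so 1 pass covers both strands. In the lines that follow, all from GRCm38.p6 and read 5′ to 3′ on the strand of the gene, the capitals mark the 20-base element, which has 1 mismatch to the consensus.
Cdkn1a, chr17:29090908-29090967, plus strand: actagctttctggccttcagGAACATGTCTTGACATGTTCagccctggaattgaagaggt
Ccng1, chr11:40755442-40755501, minus strand: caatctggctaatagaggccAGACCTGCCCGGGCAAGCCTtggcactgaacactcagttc
Rps27l, chr9:66946276-66946335, plus strand: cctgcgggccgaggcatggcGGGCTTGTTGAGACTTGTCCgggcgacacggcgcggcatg

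The Cdkn1a element lay 51 bases before a RefSeq start and outside all 5 annotated transcripts of the gene. The Ccng1 element lay 195 bases before the start, also outside the gene. The Rps27l element lay 117 bases before a start inside the gene, in an intron of 3 of its 6 transcripts and outside the other 3. A match this close was found in 3 of the 30 members with a window and in 22 of 32851 windows of all genes, or 0.067%. With up to 3 mismatches, 7 of the 30 members had a match, against 1.38% of all windows, the further 4 being Trp53, Bbc3, Sesn1 and Aen. Those of Trp53 and Bbc3 are given as 2 genes of the pathway core.
Trp53, chr11:69580284-69580303, plus strand, 75 bases before its start: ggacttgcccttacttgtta
Bbc3, chr7:16309486-16309505, plus strand, 97 bases before a start: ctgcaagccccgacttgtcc

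These matches describe the letters of the windows and no binding was measured here. A close match did not go with a difference between treated and saline tumors in every case: of the 3 genes with the closest elements, Cdkn1a differed most from saline, while Ccng1 and Rps27l stayed near the saline level, as given below.

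The libraries held 17538380 to 21194980 counts, and 15821 genes were tested. Levels are given as CPM, read counts scaled to library size after TMM, and differences as log2 fold changes from edgeR's quasi-likelihood test. The saline tumor A3688 stood apart: it was the tumor farthest from the median of the other 8 for 17 of the 39 members (43.59%) and for 36.69% of all tested genes. Its 9 skeletal muscle markers summed to 797.8 CPM, against 32.96 and 214.1 CPM in the other saline tumors and 4.756 to 33.01 CPM in the treated ones. Of these 9 markers, 8 had all 6 treated tumors below all 3 saline tumors (all genes, 2.66%), 8 were lower at an unadjusted p under 0.05 for both treatments, and 1 passed after adjustment (adjusted p = 0.0207 by edgeR), with a median log2 fold change of -5.24. Epithelial markers summed to 4752 to 8882 CPM in saline tumors, to 5724 to 7348 CPM after i.v. TLZ and to 4107 to 6091 CPM after NanoTLZ, so all 9 samples held the RNA of the tissue on their label. Leukocyte markers ran from 147.4 to 552.8 CPM in saline tumors, from 221.2 to 588.3 CPM after i.v. TLZ and from 497 to 702 CPM after NanoTLZ. The sums of the epithelial, leukocyte, fibroblast, endothelial and adipocyte markers overlapped between the 6 treated and the 3 saline tumors, and no listed marker was at 0 in all 9 tumors. Gene by gene, the 8 tested leukocyte, 7 fibroblast and 5 endothelial markers all lay above 0 for both treatments, beside 46% of all genes. Of the 8 epithelial markers, 3 lay above 0 for both treatments together, and the lowest value was -4.49 in i.v. TLZ and -6.29 in NanoTLZ. None of the markers in these 4 lists passed the adjusted threshold, with 0 called in each. In whole tumors, fewer cells of a type and less RNA per cell cannot be told apart, and the part of these other cells in the results was not tested.

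The genes of the genotype were read first. Trp53 was measured at 23.4, 34.6 and 45.6 CPM in saline, at 33.0, 38.9 and 31.1 CPM in i.v. TLZ, and at 107.6, 29.4 and 31.3 CPM in NanoTLZ. A single NanoTLZ tumor, C3519, was high, and the 3 groups otherwise overlapped. The log2 fold change against saline was -0.01 (SE 0.49) for i.v. TLZ and 0.70 (SE 0.49) for NanoTLZ, and the latter was -0.18 (SE 0.35) without C3519. Brca1 was measured at 32.6, 29.6 and 42.7 CPM in saline, 11.8, 9.46 and 31.5 CPM in i.v. TLZ, and 18.4, 18.2 and 19.8 CPM in NanoTLZ. All 3 NanoTLZ tumors lay under the saline tumors, while 1 i.v. TLZ tumor reached into their range. The log2 fold change of both treatments against saline was -0.94 (SE 0.37), with an adjusted p of 0.338 by edgeR's quasi-likelihood test with Benjamini-Hochberg adjustment. Brca1 counts cover the whole gene, host cells included, so they do not check the Cre deletion.

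**Figure D1:**
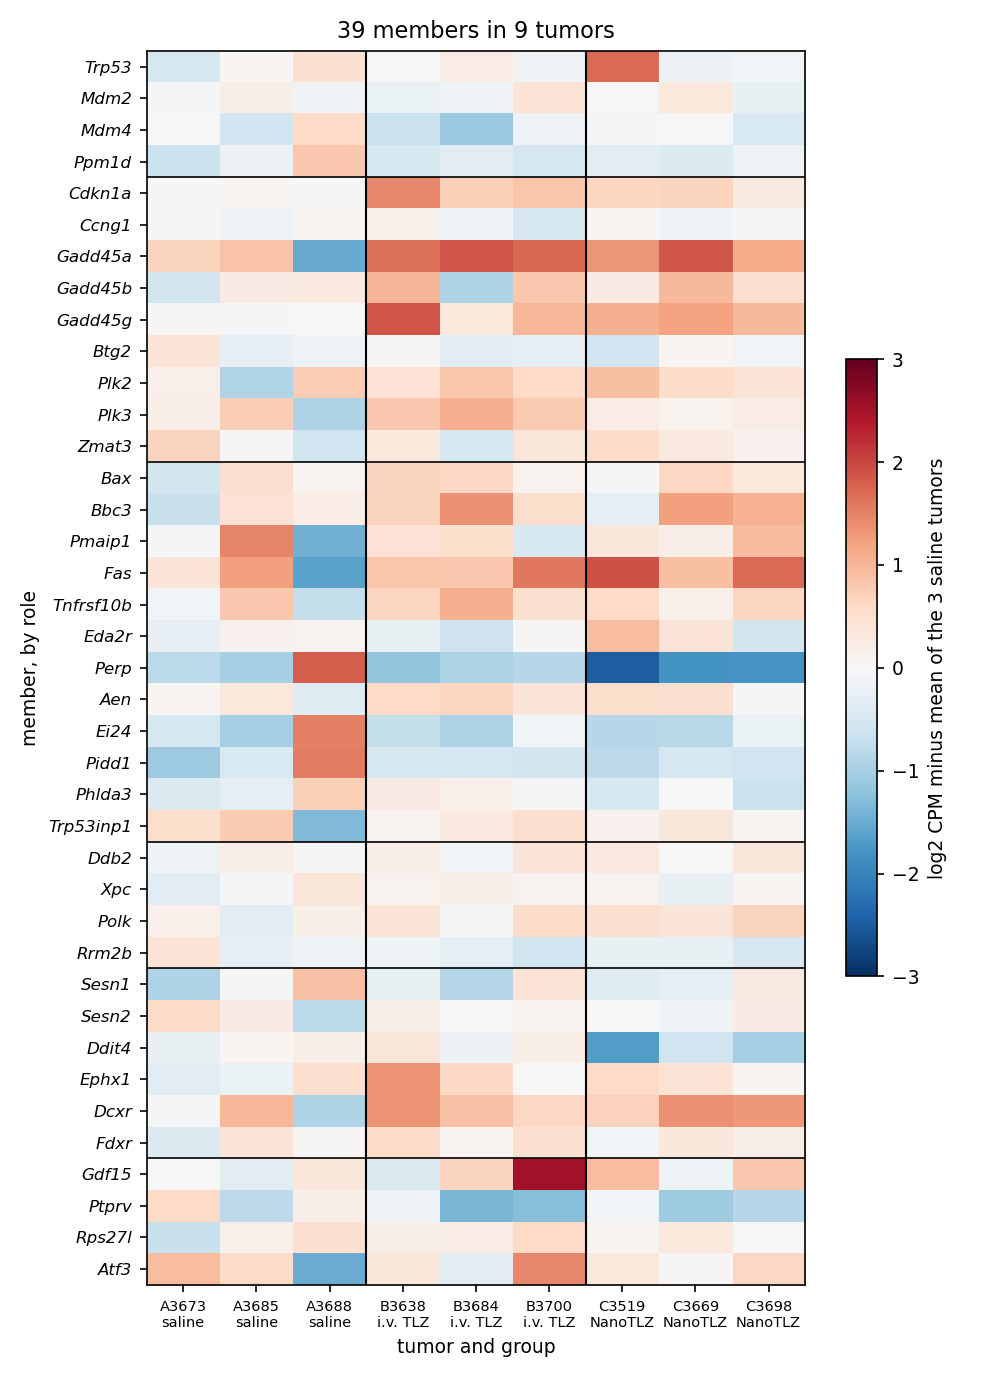
Each row is 1 of the 39 genes, ordered by role with lines between the groups of roles, and each column 1 tumor; the color is log2 CPM minus the mean of the 3 saline tumors. The rows of Cdkn1a, Gadd45a and Gadd45g are red in all 6 treated tumors, and the saline column A3688 differs from its 2 neighbors in many rows.

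The question put to the 39 genes was whether p53 target and damage response genes were higher after either form of Talazoparib. None of the 39 passed the adjusted threshold of 0.05 in any comparison by edgeR's quasi-likelihood test with Benjamini-Hochberg adjustment over all tested genes. The smallest adjusted p was 0.417 for i.v. TLZ, 0.552 for NanoTLZ and 0.277 for both treatments together against saline, and 0.9999 for NanoTLZ against i.v. TLZ. Among all tested genes, 0% passed for i.v. TLZ, 0.00632% for NanoTLZ, 0.019% for both treatments and 0% between the treatments. At an unadjusted p under 0.05, 3 members were higher and 1 lower in i.v. TLZ (all genes, 4.91% and 5.47%), and 1 was higher and 2 were lower in NanoTLZ (3.51% and 5.49%). For both treatments together, 3 were higher and 1 lower (4.8% and 8.29%). DESeq2 was also fitted to the groups compared, with the 6 treated tumors taken as 1 group where both treatments were joined. There, 2 members passed the adjusted threshold for NanoTLZ (Gadd45g and Perp), 1 for both treatments (Gadd45g) and 0 in the other 2 comparisons. Over all 35275 genes, these fits called 171 for NanoTLZ, 366 for both treatments, 92 for i.v. TLZ and 21 between the treatments. Perp was highest by far in the saline tumor A3688, and no DESeq2 fit left that tumor out. The genes behind the counts at an unadjusted p were Cdkn1a, Gadd45a, Gadd45g, Perp and Ddit4.

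The list as a whole sat slightly above the rest of the transcriptome. In i.v. TLZ, 25 of the 39 log2 fold changes against saline were above 0, beside 47.6% of all genes, and their median was 0.14 beside -0.03 for all genes. In NanoTLZ, 24 of 39 were above 0, beside 43.9% of all genes, with a median of 0.08 beside -0.09. For both treatments together it was 24 of 39, beside 46% of all genes, with a median of 0.16 beside -0.06. Both comparisons use the same 3 saline tumors and are therefore not independent. No test was made of the list, whose genes were chosen with earlier results known.

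In i.v. TLZ, 6 members had all 3 treated tumors above all 3 saline tumors, against 5.99% of all genes: Cdkn1a, Gadd45a, Gadd45g, Plk3, Bbc3 and Aen. None had all 3 below, against 5.2%. For NanoTLZ, 4 members lay above without overlap (Cdkn1a, Gadd45a, Gadd45g and Polk; all genes, 7.82%) and 2 below (Perp and Ddit4; 8.13%). Cdkn1a, Gadd45a and Gadd45g were the 3 members with all 6 treated tumors above the saline tumors (all genes, 2.81%), and no member had all 6 below (2.66%).

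**Figure D2:**
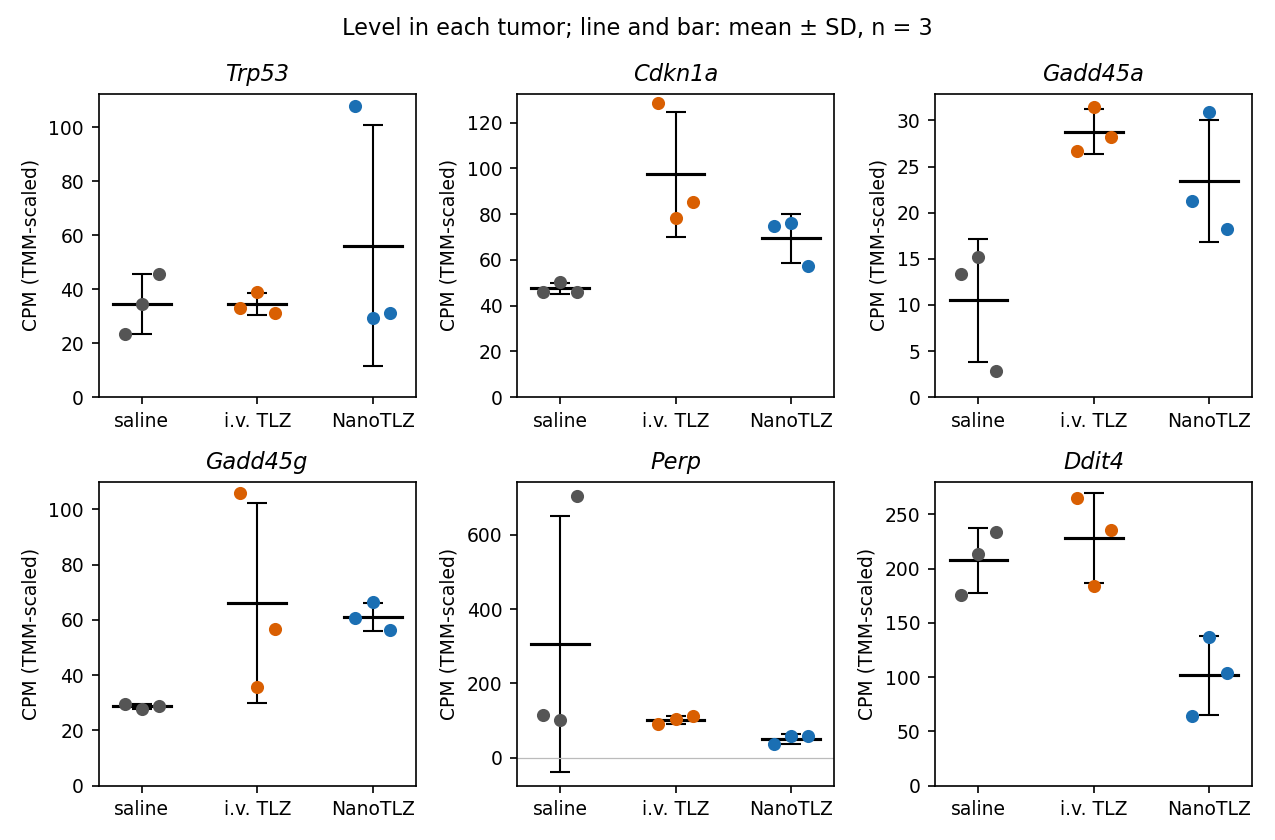
Each panel is 1 gene and each point 1 tumor, in CPM after TMM scaling, with a line at the mean and bars of 1 SD (n = 3 per group). The treated points of Cdkn1a, Gadd45a and Gadd45g lie above all saline points, single tumors carry the high means of Trp53 in NanoTLZ and Perp in saline, and Ddit4 is low in NanoTLZ alone.

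The genes of cell cycle arrest had the highest median of the groups of roles in both treatments. Cdkn1a encodes p21, the inhibitor of cyclin-dependent kinases that holds cells in G1. It was measured at 46.1, 50.5 and 46.1 CPM in saline, at 128.5, 78.3 and 85.3 CPM in i.v. TLZ, and at 74.8, 76.1 and 57.2 CPM in NanoTLZ. The saline tumors lay close together and every treated tumor lay above them, with no overlap between the 2 treatments either. Its log2 fold change was 1.03 (SE 0.27, unadjusted p = 0.00318, adjusted p = 0.417 by edgeR's quasi-likelihood test with Benjamini-Hochberg adjustment) for i.v. TLZ, a fold of 2.05. For NanoTLZ it was 0.55 (SE 0.27, unadjusted p = 0.0679 and adjusted p = 0.568 by the same edgeR test), a fold of 1.46.

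Gadd45a and Gadd45g are small proteins that bind p21, PCNA and stress kinases and take part in the G2/M checkpoint. Gadd45a was measured at 13.4, 15.2 and 2.89 CPM in saline, at 26.7, 31.5 and 28.2 CPM in i.v. TLZ, and at 21.2, 30.9 and 18.2 CPM in NanoTLZ. Even the highest saline tumor lay under the lowest treated tumor, and A3688 was lower still. For Gadd45a the log2 fold change was 1.46 (SE 0.53, edgeR unadjusted p = 0.0200, adjusted p = 0.443) for i.v. TLZ and 1.16 (SE 0.52, adjusted p = 0.559) for NanoTLZ, and without A3688 it was 1.02 and 0.74. Gadd45g was measured at 29.5, 27.8 and 28.8 CPM in saline, at 106, 35.6 and 56.9 CPM in i.v. TLZ, and at 60.6, 66.5 and 56.2 CPM in NanoTLZ. The saline tumors were nearly equal, and the i.v. TLZ tumors were spread over a range of 2.98-fold. For Gadd45g it was 1.20 (SE 0.36, edgeR unadjusted p = 0.00794, adjusted p = 0.421) for i.v. TLZ and 1.09 (SE 0.36, unadjusted p = 0.0134, adjusted p = 0.552) for NanoTLZ. Leaving out A3688 gave 1.22 and 1.12. The i.v. TLZ tumor B3638, the highest for both Cdkn1a and Gadd45g, also had the highest sum of the 7 fibroblast markers, 6016 CPM against 990.5 to 3100 CPM in the other 8 tumors. The part of fibroblasts in these values was not tested. Of the exon bases of Gadd45a, 19.1% are shared with a gene on the opposite strand that held 137 counts in all 9 libraries, against 3623 for Gadd45a.

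The other members of this group did not stand apart from saline in both treatments. Plk3, a stress-responsive kinase, was at 47.1, 69.0 and 21.8 CPM in saline, at 72.8, 87.8 and 71.5 CPM in i.v. TLZ, and at 48.3, 44.3 and 48.0 CPM in NanoTLZ. The i.v. TLZ tumors were thus above both other groups, with a log2 fold change of 0.75 (95% interval -0.07 to 1.57) against saline. Gadd45b, the third protein of its family, and Plk2, a related kinase, had log2 fold changes of 0.48 and 0.48 in i.v. TLZ and of 0.57 and 0.48 in NanoTLZ, with overlapping groups. Ccng1, which recruits a phosphatase to Mdm2, kept a level of 37.1 to 57.4 CPM over all 9 tumors, and its log2 fold change was -0.13 (95% interval -0.68 to 0.42) in i.v. TLZ and -0.01 (-0.56 to 0.54) in NanoTLZ. Btg2, an antiproliferative factor, lay at -0.20 and -0.20, and Zmat3, an RNA-binding zinc finger protein, at 0.01 and 0.25. In all, 7 of the 9 genes of cell cycle arrest had log2 fold changes above 0 in each treatment, with medians of 0.48 in both. Summed, the 9 genes came to 383.2 to 461.1 CPM in saline tumors, 566.4 to 707.5 CPM after i.v. TLZ and 517.7 to 594.2 CPM after NanoTLZ. This was the only one of the 6 groups of roles whose sum did not overlap between treated and saline tumors.

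The inhibitors of p53, which p53 itself switches on, did not share this pattern. Mdm2 was measured at 60.9, 71.7 and 58.4 CPM in saline, at 55.5, 57.9 and 84.6 CPM in i.v. TLZ, and at 64.2, 79.6 and 54.1 CPM in NanoTLZ. The groups overlapped throughout. In each treatment the log2 fold change was 0.05, with a 95% interval of -0.55 to 0.65 in both, so a doubling lies outside the interval. Mdm4 had log2 fold changes of -0.67 (95% interval -1.46 to 0.13) in i.v. TLZ and -0.23 (-1.02 to 0.56) in NanoTLZ, and -0.30 and 0.15 without A3688. Ppm1d, the Wip1 phosphatase that turns the damage signal off, had -0.57 (-1.44 to 0.29) and -0.43 (-1.29 to 0.43), and -0.04 and 0.12 without A3688. For both genes A3688 held the highest value of the 9 tumors, 179.7 CPM for Mdm4 and 32.6 CPM for Ppm1d.

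The 12 genes of apoptosis and death receptors moved in no common direction, with medians of 0.04 in i.v. TLZ and 0.17 in NanoTLZ and 7 of 12 above 0 in each. Bax, which opens the outer mitochondrial membrane, was at 35.2, 71.6 and 54.7 CPM in saline, at 81.8, 79.4 and 55.6 CPM in i.v. TLZ, and at 49.8, 79.0 and 64.5 CPM in NanoTLZ. The groups overlapped, and the log2 fold change was 0.43 (95% interval -0.29 to 1.15) for i.v. TLZ and 0.26 (-0.46 to 0.98) for NanoTLZ. Of the Bax exon bases, 12.2% are shared with another annotated gene on the same strand, to which reads could have been split. Bbc3, the BH3-only protein Puma, was at 6.87, 14.7 and 12.8 CPM in saline, at 17.3, 28.5 and 15.7 CPM in i.v. TLZ, and at 8.91, 25.6 and 22.6 CPM in NanoTLZ. The i.v. TLZ tumors lay above saline without overlap, and 1 of the NanoTLZ tumors lay within the saline range. Its log2 fold changes of 0.84 (95% interval -0.21 to 1.89) and 0.73 (-0.32 to 1.78) had adjusted p of 0.549 and 0.626 by the edgeR test. Pmaip1, the BH3-only protein Noxa, had log2 fold changes of -0.23 and 0.08, the latter -0.35 without A3688. Aen, an apoptosis-enhancing nuclease, was at 21.6, 25.7 and 15.8 CPM in saline and at 31.3, 32.1 and 27.1 CPM in i.v. TLZ, above saline without overlap, while the NanoTLZ tumors, at 29.6, 29.0 and 20.02 CPM, overlapped with saline.

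The death receptors were low and variable. Fas, the receptor of Fas ligand, was at 5.38, 9.82 and 1.29 CPM in saline, 7.42, 7.27 and 12.6 CPM in i.v. TLZ, and 15.7, 7.75 and 13.7 CPM in NanoTLZ. The lowest value was that of A3688, and the groups overlapped. Its log2 fold changes were 0.73 in i.v. TLZ and 1.17 (95% interval -0.26 to 2.60) in NanoTLZ, and without A3688 they were 0.27 and 0.73. Tnfrsf10b, the receptor for Trail, had 0.62 and 0.34. Eda2r, a receptor for ectodysplasin, was the lowest member per kilobase of exon (0.294 CPM per kb), with -0.27 and 0.38.

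Perp, a tetraspan membrane protein of desmosomes that p53 and p63 switch on, had the lowest log2 fold changes of the list. It was measured at 115.1, 100.7 and 704.8 CPM in saline, at 90.6, 104.3 and 111.8 CPM in i.v. TLZ, and at 36.0, 58.5 and 58.6 CPM in NanoTLZ. A3688 was far above every other tumor, while the other 2 saline tumors lay within or near the i.v. TLZ range and the NanoTLZ tumors lay under all others. The log2 fold change was -1.59 (SE 0.66, edgeR unadjusted p = 0.0373, adjusted p = 0.460) for i.v. TLZ, and without A3688 it was -0.07 (unadjusted p = 0.821). For NanoTLZ it was -2.59 (SE 0.69, edgeR unadjusted p = 0.00359, adjusted p = 0.552), and without A3688 it was -1.05 (unadjusted p = 0.00428, adjusted p = 0.611).

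Ei24 and Pidd1 showed the same dependence on that tumor. Ei24, a protein of the endoplasmic reticulum, was at 64.1, 46.6 and 264.1 CPM in saline, and its log2 fold changes of -0.96 and -1.03 were 0.22 and 0.18 without A3688. Pidd1, the scaffold of the PIDDosome, was at 5.95, 9.34 and 37.4 CPM in saline, and its -0.97 and -1.09 were 0.24 and 0.14 without it. The remaining members were Phlda3, an inhibitor of Akt (0.02 in i.v. TLZ and -0.45 in NanoTLZ, the latter 0.03 without A3688), and Trp53inp1, a cofactor of p53 (0.05 and -0.07, the former -0.35 without A3688).

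**Figure D3:**
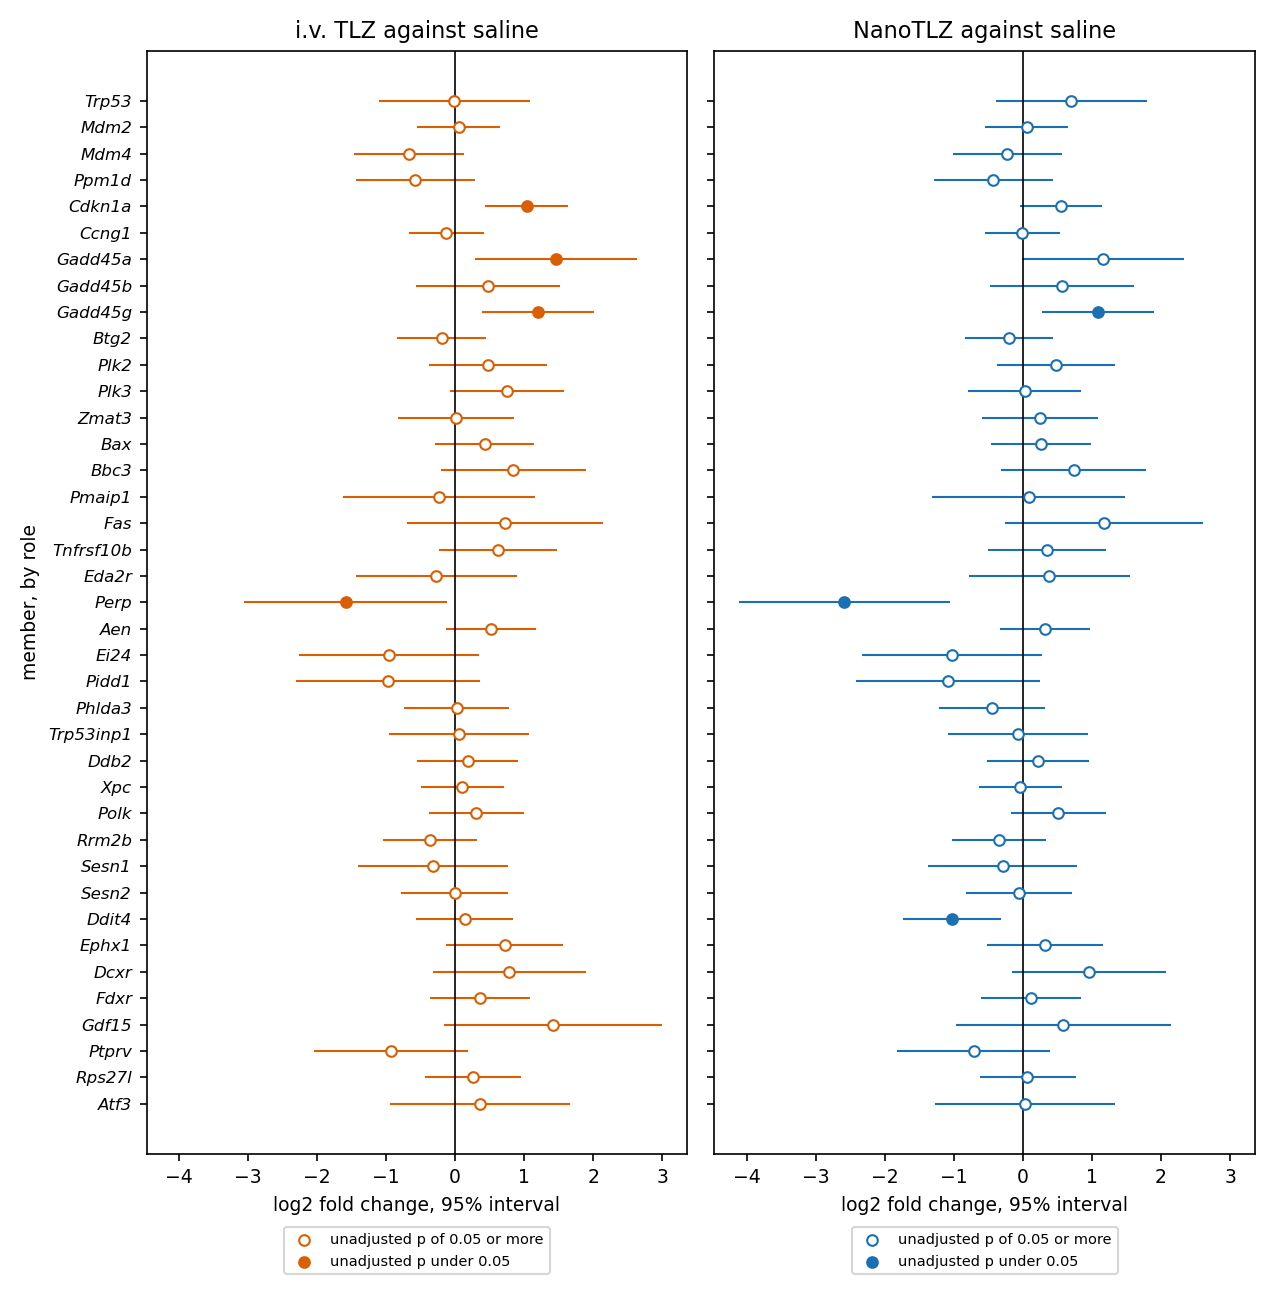
The log2 fold change of each of the 39 genes against saline (x axis) is drawn as a point with its 95% interval, for i.v. TLZ at left and NanoTLZ at right; filled points had an unadjusted p under 0.05. Filled on the right side of 0 are Cdkn1a, Gadd45a and Gadd45g in i.v. TLZ and Gadd45g in NanoTLZ. Filled on the left side are Perp in i.v. TLZ and Perp and Ddit4 in NanoTLZ. None of the 39 genes passed after adjustment.

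The 4 genes of DNA repair and nucleotide supply stayed within a narrow range. Ddb2 and Xpc, which recognise bulky lesions for nucleotide excision repair, had log2 fold changes of 0.18 and 0.10 in i.v. TLZ and of 0.22 and -0.04 in NanoTLZ. Polk, a translesion polymerase, was at 14.1, 10.2 and 14.4 CPM in saline, 16.6, 12.4 and 18.8 CPM in i.v. TLZ, and 18.2, 16.8 and 20.2 CPM in NanoTLZ. Its NanoTLZ tumors lay above saline without overlap, with a log2 fold change of 0.51 (95% interval -0.18 to 1.20). Rrm2b, the p53-driven subunit of ribonucleotide reductase, had -0.36 and -0.35. Of the exon bases of Ddb2, 23.8% are shared with Acp2 on the opposite strand, which held 7748 counts against 1687, so the Ddb2 values are uncertain if strand was not used in counting.

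Among the genes of metabolism, redox and growth control, Ddit4 differed between the treatments. Ddit4 (Redd1) is an inhibitor of the kinase complex mTORC1 that also answers to low oxygen and to glucocorticoids. It was measured at 175.3, 213.6 and 234 CPM in saline, at 265.1, 183.6 and 235.8 CPM in i.v. TLZ, and at 64.5, 136.7 and 103.6 CPM in NanoTLZ. The NanoTLZ tumors lay under all others, and the saline and i.v. TLZ tumors overlapped. Against saline, the log2 fold change was 0.14 (95% interval -0.56 to 0.84) for i.v. TLZ and -1.03 (SE 0.32, edgeR unadjusted p = 0.00879, adjusted p = 0.552) for NanoTLZ. Without C3519, the lowest tumor, the NanoTLZ value was -0.79 (unadjusted p = 0.0404). Sesn1 and Sesn2, stress-induced sestrins that restrain mTORC1, had log2 fold changes of -0.32 and -0.01 in i.v. TLZ and of -0.29 and -0.06 in NanoTLZ, and those of Sesn1 were 0.23 and 0.28 without A3688. Ephx1, an epoxide hydrolase, had 0.72 and 0.32, Dcxr, a carbonyl reductase, had 0.78 and 0.95, and Fdxr, the ferredoxin reductase of mitochondria, had 0.35 and 0.12, none with separate groups.

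Of the last 4 members, Gdf15, a secreted stress cytokine, was at 3.03, 2.38 and 3.90 CPM in saline, 2.23, 4.87 and 17.9 CPM in i.v. TLZ, and 5.87, 2.73 and 5.38 CPM in NanoTLZ. Its log2 fold change of 1.42 (95% interval -0.16 to 3.002) in i.v. TLZ went with 1 high tumor, B3700, and was 0.21 without it. Ptprv, in mouse annotated as a processed transcript, had -0.93 and -0.71. Rps27l, a ribosomal protein that binds Mdm2, had the highest level per kilobase of exon of all members (106.5 CPM per kb over the 9 tumors), with 0.26 (95% interval -0.44 to 0.96) and 0.06 (-0.63 to 0.76). Atf3, a stress-induced transcription factor, had 0.36 and 0.03, and -0.07 and -0.38 without A3688.

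NanoTLZ and i.v. TLZ hold the same drug at the same dose and schedule, and differ in the liposome; in the study's survival experiment the free drug was also given with a little DMSO and NanoTLZ in saline, so carrier and solvent cannot be told apart. For this pair, 16 of the 39 log2 fold changes were above 0, beside 45.6% of all genes, with a median of -0.06 beside -0.04. At an unadjusted p under 0.05, no member was higher (all genes, 0.449%) and 1, Ddit4, was lower (1.23%). There were 4 members that lay lower in NanoTLZ without overlap (Cdkn1a, Plk3, Perp and Ddit4; all genes, 4.41%) and none higher (3.2%). Ddit4 had a log2 fold change of -1.17 (SE 0.32, edgeR unadjusted p = 0.00436, adjusted p = 0.9999), and without C3519 it was -0.92. Cdkn1a had -0.49 (95% interval -1.08 to 0.10, edgeR adjusted p = 0.9999). Perp had -1.002 (SE 0.65, edgeR unadjusted p = 0.156). The saline tumor A3688 is in neither group of this pair and enters through the joint filter, scaling and spread. Leaving it out gave -0.98 for Perp with an edgeR unadjusted p of 0.00372. No member passed after adjustment in that fit, where the smallest adjusted p of a member was 0.9994. For Gadd45a and Gadd45g the values were -0.30 (95% interval -1.45 to 0.85) and -0.11 (-0.91 to 0.69).

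The spread of the members was smaller among treated than among saline tumors, which include A3688, and this difference was not tested. The median SD of log2 CPM over the 39 genes was 0.59 in saline tumors, 0.31 after i.v. TLZ and 0.28 after NanoTLZ, beside 0.59, 0.47 and 0.30 over all tested genes.

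Cdkn1a was compared with each of the other 38 members over the 9 tumors on the log2 CPM scale. None of the 38 relations passed Benjamini-Hochberg adjustment of exact two-sided permutation p. By Pearson's r the closest was with Gadd45g (Pearson's r = 0.86, exact permutation p = 0.00232, adjusted p = 0.0883; Spearman's rho = 0.77, exact permutation p = 0.0214). Without A3688 and B3638, the tumors farthest from the median of Cdkn1a, r was 0.68, and for deviations from the group means it was 0.86. The deviations kept all 9 tumors, B3638 included, which was the highest for both genes. Aen (r = 0.77, exact permutation p = 0.0153) and Ephx1 (r = 0.74, exact permutation p = 0.0215) came next, both with an adjusted p of 0.272. For deviations from the group means, r was 0.47 for Aen and 0.65 for Ephx1. The 9 tumors come from 3 groups, so differences between groups can enter r over all 9 tumors and its permutation p. Gadd45a was the fourth by Pearson's r, with r = 0.69 (exact permutation p = 0.0423, adjusted p = 0.402), and the first by Spearman's rho, with rho = 0.85 (exact permutation p = 0.00607, adjusted p = 0.231) and r = 0.94 without the same 2 tumors, but with r = 0.14 for deviations from the group means. Of the 38 relations of deviations, 0 passed adjustment and 1 had an unadjusted p under 0.05 (smallest adjusted p = 0.880 by exact permutation within groups).

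The rest of the pathway was read from 5 lists, none of which held a gene past the adjusted threshold in edgeR's test. For 28 damage kinases and sensors the medians were -0.64 in i.v. TLZ and -0.55 in NanoTLZ, and 1 was higher and 12 were lower at an unadjusted p under 0.05 for both treatments, beside 4.8% and 8.29% of all genes. Its ends were Chek1, the kinase of stalled replication forks (-2.26, SE 0.78, adjusted p = 0.298 by edgeR), and Cdkn2a, which encodes p16 and Arf, the latter an inhibitor of Mdm2 (1.46, SE 0.65, adjusted p = 0.376). Chek1 was at 93.3 CPM in A3688 and at 3.54 to 15.4 CPM in the other 8 tumors, and its value without A3688 was -0.31. The count for the list without A3688 was 0 higher and 5 lower, beside 4.4% and 4.87% of all genes. Without A3673 6 were lower and without C3669 7 were, and the shares of all genes in those fits are not given.

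The 20 genes that are known to be lowered through p53, p21 and the DREAM repressor complex, mostly genes of S phase and mitosis, showed the lowest medians: -1.24 in i.v. TLZ and -1.16 in NanoTLZ, with 19 of 20 below 0 in each. The list is named by that route, and whether the genes were lower through it here was not tested. For both treatments, 0 were higher and 17 lower at an unadjusted p under 0.05, beside 8.29% lower among all genes. These values depended on A3688: without it the median was -0.68 and 7 of the 20 were lower, beside 4.87% of all genes, and 1 of the 20 was above 0. With all tumors kept, 13 of the 20 had every NanoTLZ tumor below every saline tumor and 1 above (all genes, 8.13% and 7.82%). For i.v. TLZ, 4 lay below without overlap and 0 above (5.2% and 5.99%). For all 6 treated tumors it was again 4 and 0 (2.66% and 2.81%). In NanoTLZ alone, 16 were lower at an unadjusted p under 0.05 (all genes, 5.49%). That count went to 3 without A3688, to 5 without C3669, to 6 without C3698 and to 10 without C3519. In i.v. TLZ alone the count went from 15 (all genes, 5.47%) to 3 without A3688, to 3 without B3638 and to 7 without B3684. For single treatments, the shares of all genes without a tumor are not given, so these falls are not read as particular to the list. Mki67, the proliferation marker, was at 285.8, 101.1 and 940 CPM in saline, at 54.3, 97.6 and 160.2 CPM in i.v. TLZ, and at 106.7, 75.3 and 95.2 CPM in NanoTLZ. The 2 highest tumors were saline tumors and the other saline tumor lay within the treated range. Its log2 fold change of both treatments was -2.17 (SE 0.56, edgeR adjusted p = 0.277) and -0.95 (SE 0.43) without A3688. E2f1, an activator of S phase genes, was at the other end with 0.18 (SE 0.25).

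Of 30 further p53 targets, 28 were tested, with medians of -0.09 and -0.08. For both treatments together, 3 were higher and 4 lower at an unadjusted p under 0.05, beside 4.8% and 8.29% of all genes. Without A3688 the counts were 2 and 0, beside the shares given above for that fit. The ends of this list were Kank3 (1.43, SE 0.39, edgeR adjusted p = 0.280) and Zfp365 (-4.62, SE 1.24). Kank3 was higher in all 6 treated tumors. Zfp365 was at 49.9 CPM in A3688 and at 0.238 to 0.974 CPM elsewhere, with a value of 0.98 without A3688. The 18 genes of the integrated stress response, a translational stress pathway that also raises Atf3 and Ddit4, had medians of 0.57 and 0.45, with 4 higher and 0 lower beside the same 4.8% and 8.29%. Nupr1, a stress-induced chromatin factor, was highest (1.46, SE 0.66, edgeR adjusted p = 0.386) and Sesn3, the third sestrin, lowest (-1.11, SE 0.57, adjusted p = 0.426). The 20 immediate early genes, which answer to growth factors and handling of tissue, had medians of 0.12 and -0.02, with 0 higher and 1 lower beside the same shares. They ranged from Nr4a1, a nuclear receptor (-1.43, SE 0.51, edgeR adjusted p = 0.307, and -0.37 without A3688), to Fosb, an AP-1 subunit (0.94, SE 0.52, adjusted p = 0.463).

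**Figure D4:**
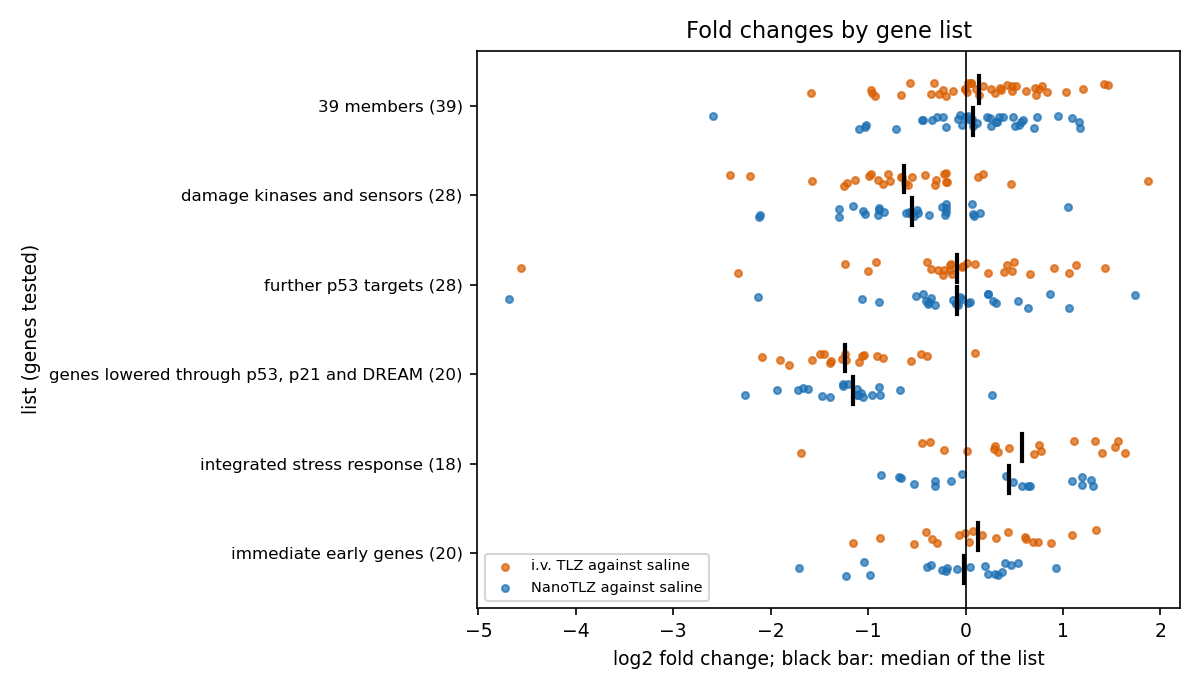
Each point is the log2 fold change of 1 gene against saline, in i.v. TLZ (orange) or NanoTLZ (blue), for the 39 genes and the 5 further lists, with a black bar at the median of each list. The 39 genes straddle 0, and the list named for lowering through p53, p21 and DREAM lies to the left with 19 of 20 below 0 in each treatment. The route in the name was not tested.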

How the data were processed

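RNA from 9 whole tumors was sequenced. The authors deposited 1 table of raw read counts per gene for all 9 tumors; per the processing notes the tools were TopHat2 and DESeq2 and the build mm10, and the counting tool, its strand setting and versions are not given in the sources used here. Of 35275 genes, 34490 matched GENCODE M21 by ID, which gave lengths and overlaps. From the counts, genes were filtered (filterByExpr, minimum count 10, minimum total 15), scaled by TMM (factors 0.886 to 1.05) and fitted with edgeR 4.0.16 in R 4.3.3 with 1 coefficient per group over all 9 tumors; p-values were adjusted over 15821 genes and called under 0.05. SE is the log2 fold change divided by the root of F, and intervals are 95%. The biological coefficient of variation was 49.8%. With 3 tumors against 3, an exact two-sided test of 1 gene cannot go below 0.1, so p-values come from the model across genes. The log2 CPM of the correlations used a prior count of 2; the permutations covered 362880 orders of the 9 tumors and 216 orders within groups. The fit was tested on simulated counts. Alternatives were DESeq2 1.42.0, other scaling, other filters, robust dispersion and leaving out each tumor.

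All 39 genes are named. From each further list, the genes with the largest positive and negative log2 fold change of both treatments were named, with Brca1 for the genotype. Values per tumor are given for the pathway core (Trp53, Cdkn1a, Mdm2, Bax and Bbc3) and for genes with an unadjusted p under 0.05 or with all treated tumors on 1 side of saline; those given for other genes were chosen after their values were seen. The members and lists were chosen with earlier results of these data known. The sequences are from RefSeq, and each match was described and not tested.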

Additional observations from a re-analysis of the deposited data

How the results depend on the processing

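No paired analysis was possible because the labels give no replicate numbers shared between groups. With DESeq2 on the groups compared (the 6 treated tumors as 1 group where both treatments were joined), 2 members passed an adjusted p of 0.05 for NanoTLZ against saline (Gadd45g, 0.0389, and Perp, 0.0343) and 1 for both treatments against saline (Gadd45g, 0.0424). In the other alternatives, including DESeq2 on all 9 tumors, 0 members passed; DESeq2 on all 9 tumors called 194 genes for i.v. TLZ and 110 for NanoTLZ, against 92 and 171 when fitted to the groups of each comparison. Between the treatments it called 3 genes against 21. For both treatments together it called 273 genes with 1 coefficient per group, against 366 with the 6 treated tumors taken as 1 group. Without a filter, edgeR called 5 genes for i.v. TLZ, 6 for NanoTLZ and 33 for both treatments. With upper quartile scaling, the members' median was 0.189 for i.v. TLZ, 0.138 for NanoTLZ and 0.223 for both treatments. Leaving out 1 tumor gave medians of 0.115 to 0.269, 0.072 to 0.212 and 0.068 to 0.263, and of -0.12 to -0.009 for NanoTLZ against i.v. TLZ, with 0 members called in each fit. Of 2613 recomputed fold changes of single members, 160 changed sign, none of them called, and 31 moved by more than the spread between replicates, all on leaving out a tumor. The cause of these shifts was not tested.

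These further counts were chosen after seeing the data, and the shares of all genes in the same fits are not given beside them. A change in such a count is therefore not read as particular to the members. The 4 members at an unadjusted p under 0.05 in i.v. TLZ became 10 without A3685. The 3 in NanoTLZ became 8 without A3685 and 5 without A3688. The 4 for both treatments became 11 without A3685 and 7 without A3673. The single member between the treatments became 3 without A3688 and 2 without A3685. Cdkn1a, Gadd45a and Gadd45g in i.v. TLZ, and Gadd45g, Perp and Ddit4 in NanoTLZ, stayed under 0.05 in 9 of 9 such fits. Perp in i.v. TLZ did so in 3 of 9. These members were picked by their p in the full fit, and some of the 9 fits left out a tumor of the group not compared. In NanoTLZ, Cdkn1a was under 0.05 in 1 of 9 fits and Gadd45a in 2 of 9. For both treatments against saline, the groups compared are all 9 tumors, so edgeR on the groups compared is the fit already reported there. Members at folds of 2.05 (Cdkn1a) to 2.74 (Gadd45a) in i.v. TLZ did not pass after adjustment at a biological coefficient of variation of 49.8%.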
